A study of Rattus norvegicus with 30 samples.

Results

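The fibroblast growth factor (FGF) receptors and the FGF ligands of the lung were followed here: 10 genes of the 22914 in the count table, chosen by symbol. They are the 4 receptors Fgfr1, Fgfr2, Fgfr3 and Fgfr4 and the 6 ligands Fgf1, Fgf2, Fgf7, Fgf9, Fgf10 and Fgf18. The series is RNA-seq of lung tissue from 30 male Sprague Dawley rats of 8 weeks, with 3 rats in each of 10 groups. Another part of the lung was fixed for histology, and the paper describes a saline flush through the pulmonary artery. Severe acute pancreatitis (SAP) was induced by infusing 5.0% sodium taurocholate, a bile salt, into the biliopancreatic duct at 0.1 mL per 100 g. Lungs were collected 6 or 24 hours later (SAP-6h, SAP-24h). In the Con groups saline was infused in its place, and in the Sham groups the pancreas was moved without an infusion. The DEX groups received taurocholate and then dexamethasone (DEX), a synthetic glucocorticoid, intravenously at 10 mg/kg. The Emo groups received taurocholate and then emodin, an anthraquinone from rhubarb, by the stomach, and the labels give its dose as 40 mg/kg in one field and 10 mg/kg in another. Drugs were given at 2 and 12 hours, so the rats killed at 6 hours had received 1 dose. Rats without a drug received the vehicles.

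FGFs are secreted proteins that bind receptor tyrosine kinases together with heparan sulfate on the cell surface. The activated receptor signals through an adaptor and the RAS and MAP kinase cascade, which switches on ETS transcription factors as well as Sprouty and dual-specificity phosphatase genes that dampen the signal. In the lung, Fgf7 and Fgf10 are made by mesenchymal cells and act on the epithelium through the epithelial form of Fgfr2. Fgf10 is needed for the lung to bud and branch, Fgf9 and Fgf18 act in lung growth, and mice without both Fgfr3 and Fgfr4 form alveoli poorly.

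A gene passed at an adjusted p under 0.05 in edgeR's quasi-likelihood test, with adjustment over the 15934 genes tested. Levels are given in FPKM, which divides reads by gene length and library total. Each library held between 16813949 and 34692306 reads on genes. Fgf2, a ligand known for its action on vessels, had 1 to 11 reads per library and was too low to test, so 9 of the 10 genes were tested. Tests compared lung tissue of mixed cells, in which fewer cells of a type cannot be told apart from less RNA per cell. Counts per gene do not separate the splice forms of the receptors. Surfactant and other genes of alveolar type 2 cells summed to 25300 to 48320 FPKM in all 30 libraries, so the tissue carried its defining markers. Heart muscle markers summed to 7.05 to 284.5 FPKM across the libraries. In the study's mapping summary, the share of reads mapped to a single place was lower in every group given taurocholate than in the Sham and Con groups. This difference cannot be told apart from the taurocholate. At the later time the share also differed among the groups given taurocholate, without overlap. It was lowest in SAP rats without a drug, higher with dexamethasone and highest with emodin. Between those groups it cannot be told apart from the drug given. The part of the mapped share in the results below was not tested.

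Fgfr4, Fgf7 and Fgf10 passed the test most often, so the sequences that belong to their measurement or lie at their start are shown. Fgfr4 was also measured in the study by quantitative PCR, with this pair of primers, printed in lower case with no part marked:
forward: ctctcgcagcagtgagaacag
reverse: tggtccttcgggatcctgct

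The promoters below are from RefSeq (build GRCr8) and run from 250 bases before to 50 bases after the transcript start. The reads were mapped to another build (rat Ensembl v6), so these coordinates are those of RefSeq. Capitals mark the GC box GGGCGG, the CCAAT box and the TATA box TATAAA, searched on both strands. AGAACA, a core of the glucocorticoid receptor's site, was searched as well because 1 of the drugs is a glucocorticoid. Fgfr4 (minus strand, chr17:9481340-9481639), Fgf7 (plus strand, chr3:133735377-133735676) and Fgf10 (plus strand, chr2:52533689-52533988) read as follows:
Fgfr4: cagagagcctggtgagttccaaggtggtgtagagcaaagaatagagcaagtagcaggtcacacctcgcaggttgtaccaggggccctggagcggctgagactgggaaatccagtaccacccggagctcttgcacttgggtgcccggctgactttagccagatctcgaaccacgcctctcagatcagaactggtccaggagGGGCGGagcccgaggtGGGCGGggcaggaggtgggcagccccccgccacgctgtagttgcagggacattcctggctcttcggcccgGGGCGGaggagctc
Fgf7: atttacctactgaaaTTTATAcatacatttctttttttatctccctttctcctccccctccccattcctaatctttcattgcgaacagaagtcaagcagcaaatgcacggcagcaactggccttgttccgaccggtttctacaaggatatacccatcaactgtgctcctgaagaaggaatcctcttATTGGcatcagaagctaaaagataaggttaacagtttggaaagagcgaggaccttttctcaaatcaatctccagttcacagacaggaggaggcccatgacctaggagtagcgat
Fgf10: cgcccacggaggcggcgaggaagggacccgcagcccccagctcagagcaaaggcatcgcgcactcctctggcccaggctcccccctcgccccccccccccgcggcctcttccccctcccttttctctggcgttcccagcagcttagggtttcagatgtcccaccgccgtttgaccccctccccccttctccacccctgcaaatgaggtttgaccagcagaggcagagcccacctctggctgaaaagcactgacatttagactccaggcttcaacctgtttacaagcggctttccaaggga

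The Fgfr4 promoter held GGGCGG at positions -50, -34 and 37, counted from the transcript start. The Fgf7 promoter held CCAAT on the other strand at -64 and TATAAA on the other strand at -235, and the Fgf10 promoter held none of the 4 motifs. AGAACA lay in 1 of the 9 member promoters in the RefSeq table (Fgf2, at -223) and in 20.7% of all 33469 promoters. GGGCGG was in 5 of 9 and 33.1%, CCAAT in 4 of 9 and 37.5%, and TATAAA in 1 of 9 and 14.2%. GC content was 63.3% for Fgfr4, 43.7% for Fgf7 and 64.0% for Fgf10, beside a median of 51.7% over all promoters. A match of letters is a description of the window only. In the same annotation, Fgf7 lies within the span of Fam227b, a gene of the opposite strand. The libraries were directional, but the strand setting of the read counting is not given in the sources used here. Reads of Fgf7 and Fam227b therefore may not be fully separated. No annotated gene overlaps Fgfr4, and a long non-coding RNA overlaps the start of Fgf10.

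Averaged over the 30 libraries, each receptor stood above each ligand in FPKM. Fgfr3 had the highest mean (25.4 FPKM, 16.12 to 40.54 across libraries), followed by Fgfr1 (19.2, 13.48 to 25.43), Fgfr2 (17.3, 8.09 to 31.53) and Fgfr4 (11.5, 1.88 to 29.17). The ligand means were 5.34 FPKM for Fgf7, 4.88 for Fgf18, 3.74 for Fgf1, 2.19 for Fgf10, 0.314 for Fgf9 and 0.100 for Fgf2. Within SAP-24h the Fgfr4 mean (3.45 FPKM) lay below those of Fgf7 (5.28), Fgf18 (3.79) and Fgf1 (3.69). Within DEX-24h the Fgfr4 mean (4.10) lay below those of Fgf7 (5.26) and Fgf18 (5.07). Fgfr4 varied most between groups, with a highest group mean 5.68 times its lowest, followed by Fgf7 at 4.18 times. Fgf1, which binds all the FGF receptors, varied least, at 1.31 times, and Fgfr1 was next at 1.61 times. Of 21 comparisons between groups, Fgfr4 passed in 6, Fgf10 in 6, Fgf7 in 4 and Fgfr2 in 1, while Fgfr1, Fgfr3, Fgf1, Fgf9 and Fgf18 passed in none. For those 5 genes the smallest adjusted p in any comparison lay between 0.0817 (Fgf9) and 0.698 (Fgf1), with edgeR.

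**Figure D1:**
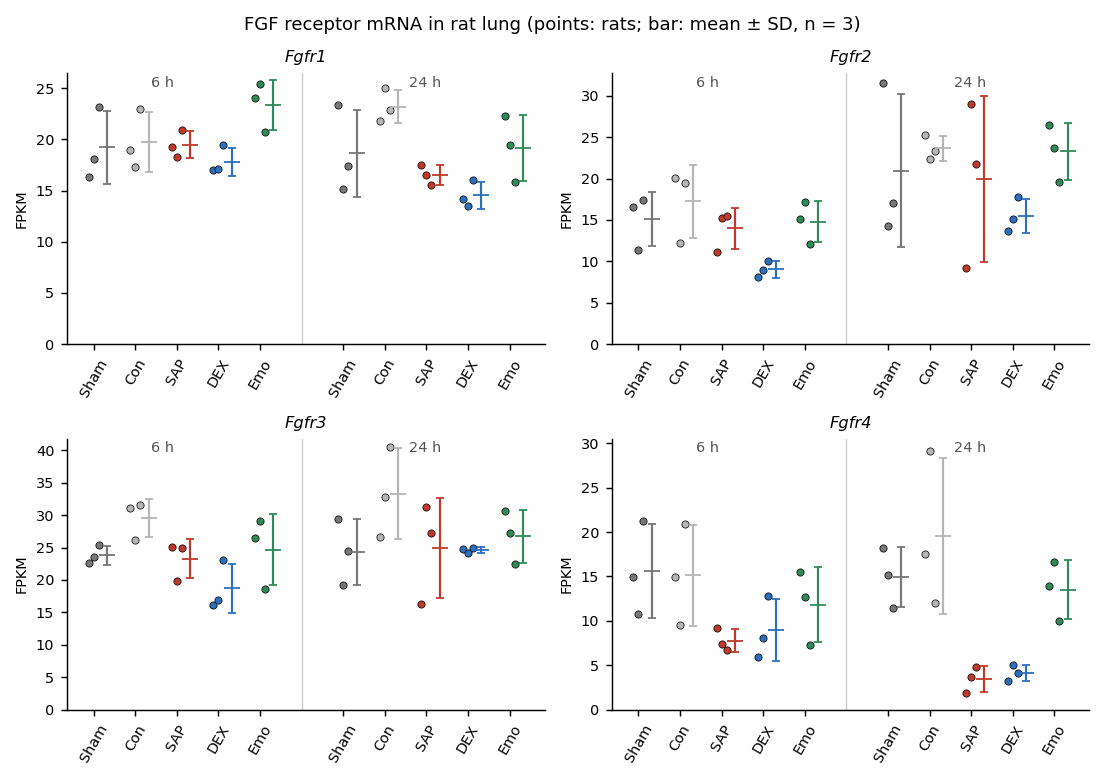
FGF receptor mRNA in FPKM (vertical axes) for the 10 groups (horizontal axes, 6 hours on the left and 24 hours on the right). Points are rats and bars are mean ± SD of 3. The 3 SAP-24h and 3 DEX-24h rats lay at 1.88 to 5.02 FPKM for Fgfr4, below every rat of the other 8 groups.

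The clearest difference at 24 hours was in Fgfr4, the receptor known in the liver for bile acid control and in the lung for its part in alveolar growth. Fgfr4 stood at 18.2, 15.19 and 11.42 FPKM in the Sham-24h rats (14.9 ± 3.40, SD, n = 3) and at 17.53, 29.17 and 12.02 FPKM in the Con-24h rats (19.6 ± 8.76). In SAP-24h it stood at 1.88, 3.66 and 4.8 FPKM (3.45 ± 1.47). All 3 SAP-24h rats lay below all 6 rats of those groups. Against Sham-24h the log2 fold change was -2.0 (SE 0.385, 95% interval -2.80 to -1.21, adjusted p = 0.00273), a level 4.0-fold lower. Fgfr4 was the only 1 of the 9 tested genes to pass in that comparison, where 12.4% of all genes passed. Against Con-24h its log2 fold change was -2.40 (adjusted p = 0.000505), and Fgf10 passed there too, in a comparison where 22.1% of all genes passed. Left out one at a time, none of the 6 rats ended the call against Sham-24h, and the log2 fold change then ran from -2.28 to -1.73. Fitted on the Sham-24h and SAP-24h rats alone, with less information on the spread, its adjusted p was 0.0643.

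At 6 hours Fgfr4 did not pass. The SAP-6h rats stood at 9.19, 7.34 and 6.75 FPKM and the Sham-6h rats at 14.88, 10.76 and 21.23 FPKM. The groups did not overlap, but the log2 fold change of -0.96 (95% interval -1.73 to -0.19) had an adjusted p of 0.255. The Con-6h rats, at 14.93, 9.47 and 20.92 FPKM, also lay above all SAP-6h rats. Against them the log2 fold change was -0.89 (adjusted p = 0.389). In SAP-6h vs Sham-6h edgeR passed 0 of the 9 genes, DESeq2 passed 0, and 2 had an unadjusted p under 0.05, with 0.27% of all genes passing. The change of the SAP effect from 6 to 24 hours was tested directly, and for Fgfr4 it was -1.04 on the log2 scale (SE 0.526, adjusted p = 0.425). That test passed 0 of the 9 genes (0 also with DESeq2 and at an unadjusted p under 0.05), and 0.0314% of all genes. From SAP-6h to SAP-24h the Fgfr4 log2 fold change was -1.09 (adjusted p = 0.0802).

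The other receptors did not pass between SAP-24h and Sham-24h. Fgfr2, the receptor of Fgf7 and Fgf10 on epithelium, stood at 9.2, 29.04 and 21.69 FPKM in SAP-24h and at 31.53, 14.3 and 17.05 in Sham-24h, groups that overlap (log2 fold change 0.05, 95% interval -0.54 to 0.64). Replicate 1 of SAP-24h was the lowest of its group for 7 of the 9 tested genes. Fgfr1, a receptor of mesenchymal cells, changed by -0.04 (95% interval -0.34 to 0.27) and Fgfr3 by 0.16 (-0.25 to 0.56).

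The makeup of the receptor mRNA followed from these values. Fgfr4 made up 19.3 ± 4.0% of the summed receptor FPKM in Sham-24h and 5.22 ± 1.49% in SAP-24h. Fgfr3 held 31.2 ± 3.18% and 38.2 ± 1.60%. The sum of the 4 receptors was 78.9 ± 20.8 FPKM in Sham-24h and 64.9 ± 18.2 FPKM in SAP-24h, values that overlap. The share of Fgfr4 was 6.97 ± 1.54% in DEX-24h and 16.2 ± 2.48% in Emo-24h. The share among Sham-6h rats was 20.8 ± 3.74%, beside 12.1 ± 2.14% for SAP-6h, 16 ± 3.5% for DEX-6h and 15.5 ± 3.39% for Emo-6h.

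**Figure D2:**
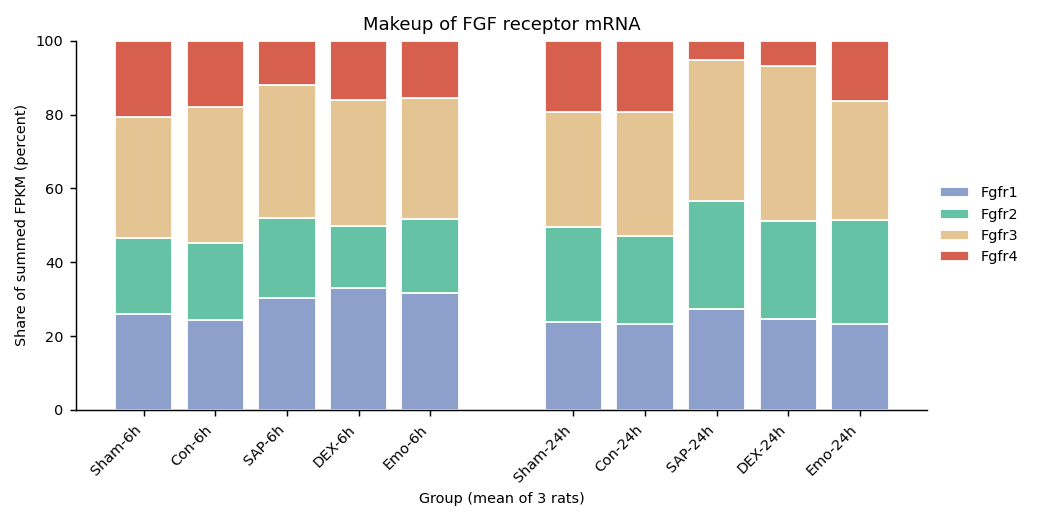
Share of each receptor in the summed FPKM of the 4 receptors, in percent (vertical axis), as the mean of 3 rats in each of the 10 groups (horizontal axis). The Fgfr4 segment is 5.22% in SAP-24h and 6.97% in DEX-24h, and between 12.1% and 20.8% in the other 8 groups.

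Whether either drug was followed by a different level at 24 hours was asked by comparing the treated rats with SAP-24h. With emodin, Fgfr4 stood at 13.94, 16.63 and 9.95 FPKM (13.5 ± 3.36), so all 3 Emo-24h rats lay above all 3 SAP-24h rats and within or just below the range of Sham-24h. Its log2 fold change against SAP-24h was 1.83 (SE 0.383, adjusted p = 0.00692), a level 3.54-fold higher. It was the only 1 of the 9 genes to pass, in a comparison where 8.59% of all genes passed. The call held with each of the 6 rats left out, with a largest adjusted p of 0.0448, and was lost when only the 2 groups were fitted (adjusted p = 0.102). Against Sham-24h the difference was -0.18 (95% interval -0.94 to 0.58), so the interval includes lower as well as higher levels than in Sham-24h. Replicate 3 of Emo-24h was the lowest of its group for 8 of the 9 tested genes. In Emo-24h vs Sham-24h edgeR passed 0 of the 9 genes, with 0 at an unadjusted p under 0.05 and 0 by DESeq2, and 0% of all genes passed.

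With dexamethasone Fgfr4 did not pass against SAP-24h. The DEX-24h rats stood at 3.2, 5.02 and 4.08 FPKM for Fgfr4 (4.10 ± 0.910), overlapping SAP-24h. The log2 fold change against SAP-24h was 0.18 (95% interval -0.60 to 0.96, adjusted p = 0.81), an interval that holds both lower and higher levels. Against Sham-24h Fgfr4 was 3.53-fold lower (log2 fold change -1.82, adjusted p = 0.00457), 1 of 2 genes to pass where 6.97% of all genes passed. Emo-24h lay above DEX-24h by 1.65 on the log2 scale (3.13-fold, adjusted p = 0.00826), the only 1 of 9 to pass with edgeR where 8.89% of all genes passed. This last call was lost without Emo-24h replicate 2 (adjusted p = 0.051). These comparisons share the SAP-24h, Sham-24h and DEX-24h rats and are not independent of each other.

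Markers of other cell types also differed between these groups. Of 10 fibroblast markers in SAP-24h vs Sham-24h, 4 were lower (Col3a1, Col1a2, Lum and Mfap4) and Pdgfra was higher, with a median log2 fold change of -0.89 beside -0.03 over all genes. Their summed FPKM overlapped, with 684.4 to 738.2 for Sham-24h rats and 482.8 to 825.6 for SAP-24h rats. Smooth muscle and pericyte markers summed to 278.9 to 437.7 FPKM for SAP-24h rats and 515.0 to 743.8 for Sham-24h rats, without overlap, although 0 of 8 passed with edgeR (4 at an unadjusted p under 0.05). Alveolar type 1 cell markers were lower for 3 of 7. Alveolar type 2, airway and macrophage markers each had 1 higher and 0 lower, and mesothelium and endothelial markers each 1 lower and 0 higher. Neutrophil markers summed to 4478 to 16330 FPKM for SAP-24h, 4272 to 6606 for Emo-24h and 193.6 to 9258 for Sham-24h, whose replicate 3 was the high rat. In Emo-24h vs SAP-24h, smooth muscle and pericyte markers were higher for 2 of 8 (Myh11 and Pdgfrb) and lower for 0, with a median log2 fold change of 0.525 beside 0.015 over all genes. Their sum in Emo-24h was 492.7 to 713.2 FPKM, above all SAP-24h rats. Fibroblast markers gave 1 higher (Lum) and 1 lower (Pdgfra) of 10, and alveolar type 2 markers 1 lower of 9. Endothelial markers gave 1 higher of 6, and glucocorticoid targets 1 lower of 7. In DEX-24h vs Sham-24h fibroblast markers were lower for 4 of 10 (Col3a1, Lum, Mfap4 and Npnt) and higher for 0. Their median log2 fold change was -0.999. Their sum of 329.3 to 393.2 FPKM in DEX-24h lay below all Sham-24h and all SAP-24h rats. Alveolar type 2 and macrophage markers each had 1 higher and 0 lower there, and glucocorticoid targets were higher for 3 of 7. In Emo-24h vs DEX-24h fibroblast markers were higher for 2 of 10 (Lum and Inmt, median log2 fold change 0.643 beside 0.007 over all genes) and smooth muscle and pericyte markers for 1 of 8 (Pdgfrb), with 0 lower in either list. Alveolar type 1, alveolar type 2 and endothelial markers each had 1 lower and 0 higher there, and glucocorticoid targets were lower for 7 of 7. The part of these markers in the Fgfr4 result was not tested.

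**Figure D3:**
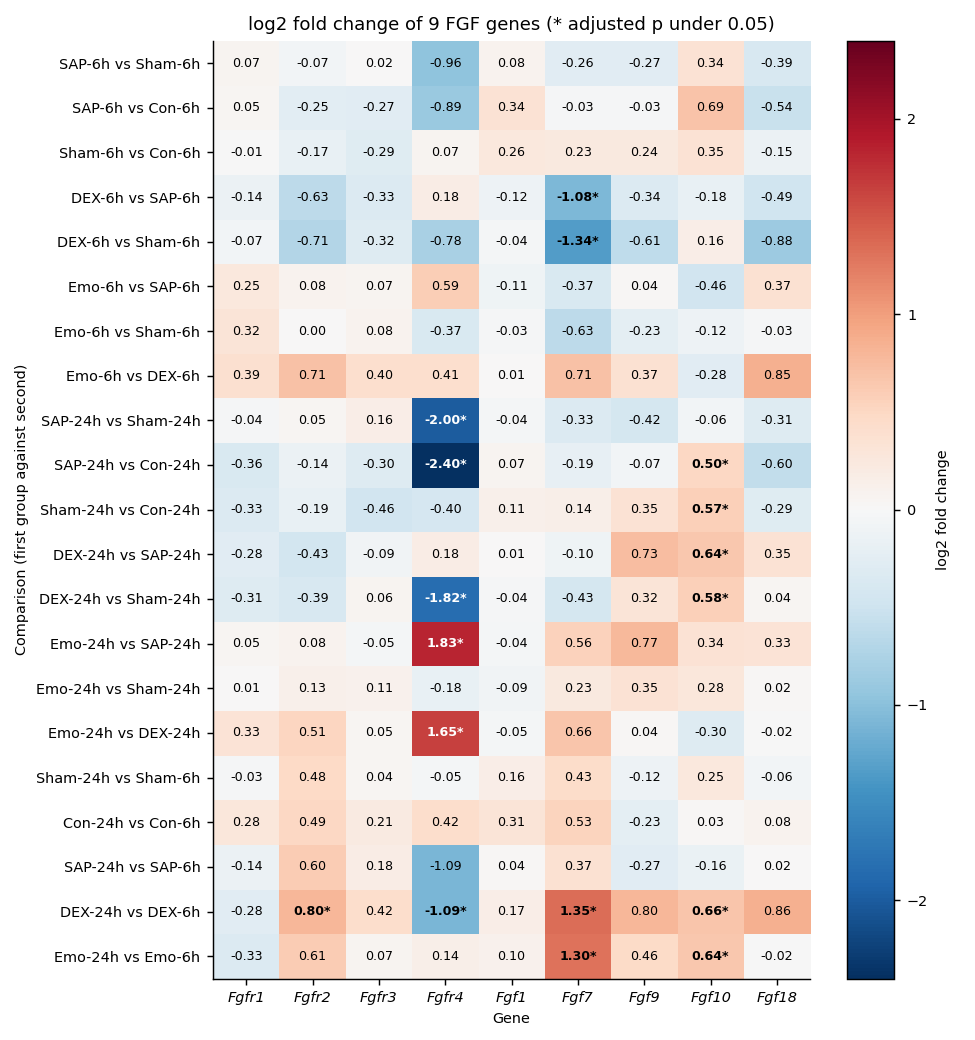
Log2 fold changes (colour and printed value) of the 9 tested genes (columns) in 21 comparisons (rows, first group against second), with an asterisk at an adjusted p under 0.05. Fgfr4 runs from -2.40 (SAP-24h vs Con-24h) to 1.83 (Emo-24h vs SAP-24h), and Fgf1 stays between -0.12 and 0.34.

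Among the ligands, Fgf7, the keratinocyte growth factor that stimulates alveolar epithelium, was lowest in DEX-6h. It stood at 2.07, 1.66 and 2.56 FPKM in DEX-6h (2.10 ± 0.451), at 4.15, 4.99 and 4.09 in SAP-6h (4.41 ± 0.503) and at 6.28, 5.26 and 4.88 in Sham-6h (5.47 ± 0.724). The 3 DEX-6h rats lay below every other rat of the 30 for this gene. Against SAP-6h the log2 fold change was -1.08 (SE 0.225, adjusted p = 0.0217), and Fgf7 was the only 1 of 9 genes to pass where 0.979% of all genes passed. That call rested on few rats: without DEX-6h replicate 1 the adjusted p was 0.108, without DEX-6h replicate 2 it was 0.0793, without SAP-6h replicate 2 it was 0.126 and without SAP-6h replicate 3 it was 0.0687. Fitted on those 2 groups alone it was 0.0865. Against Sham-6h Fgf7 was 2.54-fold lower (log2 fold change -1.34, adjusted p = 0.000733), the only 1 of 9 to pass where 9.75% of all genes passed, and none of the 6 rats ended that call. Fam227b, which spans Fgf7 on the other strand, stood at 0.48 to 1.02 FPKM in DEX-6h, 0.53 to 1.07 in SAP-6h and 0.75 to 0.94 in Sham-6h, ranges that overlap.

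Markers of fibroblasts, cells known to make Fgf7, summed to 453.7 to 848.1 FPKM in DEX-6h and 598.2 to 1146 in SAP-6h, which overlap, and edgeR passed 0 of 10 (2 at an unadjusted p under 0.05). Against Sham-6h fibroblast markers also passed for 0 of 10 (0 at an unadjusted p under 0.05). In that comparison alveolar type 1 markers were lower for 2 of 7 (median log2 fold change -0.686 beside -0.038 over all genes). Alveolar type 2, smooth muscle and pericyte, and macrophage markers each had 1 lower and 0 higher, airway markers 1 higher, and endothelial markers 1 higher and 1 lower. The part of these markers in the Fgf7 results was not tested. Glucocorticoid target genes summed to 1335 ± 143 FPKM in DEX-6h and 1129 ± 83.9 in DEX-24h, beside 921 in SAP-6h and 712 in SAP-24h, although Sgk1 was the only 1 of 7 to pass against SAP at each time. Emodin at 6 hours gave Fgf7 values of 3.51, 4.13 and 2.71 FPKM, which overlap with SAP-6h (log2 fold change -0.37, adjusted p = 0.471). In Emo-6h vs SAP-6h edgeR passed 0 of the 9 genes, as did DESeq2, with 1 at an unadjusted p under 0.05 (Fgf10) and 0.0314% of all genes passing.

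At 24 hours Fgf7 was higher in DEX-24h than in DEX-6h. The DEX-24h rats stood at 6.03, 5.54 and 4.21 FPKM, all above the DEX-6h rats, and the rise was 1.35 on the log2 scale (adjusted p = 0.00028). They still lay below all 3 Sham-24h rats (8.2, 6.42 and 7.31 FPKM), with a log2 fold change of -0.43 that did not pass (adjusted p = 0.272). In Emo-24h the values were 9.92, 8.68 and 7.7 FPKM, also all above Emo-6h, with a rise of 1.30 (adjusted p = 0.000179). Without a drug, Fgf7 was also higher at 24 hours without overlap in Sham (log2 fold change 0.43) and Con (0.53). In SAP it was 0.37, with overlap. None of these passed with edgeR (adjusted p of 0.259, 0.37 and 0.304). Fam227b moved the same way between the emodin groups, from 0.24 to 0.59 FPKM in Emo-6h to 0.93 to 1.08 in Emo-24h without overlap, while DEX-24h (0.49 to 0.91) overlapped with DEX-6h. Its part in the Fgf7 rise with emodin was not tested. DEX-24h vs DEX-6h passed 4 of the 9 genes where 25.9% of all genes passed, and Emo-24h vs Emo-6h passed 2 of 9 where 34.1% passed, so these shares lie beside a large change across the lung. No rat of either pair of groups ended the Fgf7 calls when left out. In the same comparisons fibroblast markers were lower for 6 of 10 and higher for 0 in DEX-24h vs DEX-6h (median log2 fold change -1.33), and lower for 6 and higher for 2 in Emo-24h vs Emo-6h (median -1.02). Their summed FPKM of 329.3 to 393.2 in DEX-24h lay below the 453.7 to 848.1 of DEX-6h, while Emo-24h (566.2 to 958.4) and Emo-6h (927.4 to 1018) overlapped. Smooth muscle and pericyte markers were lower for 2 of 8 and higher for 0 with DEX, and lower for 3 and higher for 1 with emodin. In Emo-24h vs Emo-6h glucocorticoid targets were lower for 4 of 7, and endothelial markers gave 2 higher and 1 lower. Alveolar type 1 and type 2 markers each gave 1 higher and 1 lower. Airway markers had 1 higher, and mesothelium and macrophage markers each had 1 lower. The part of these markers in the Fgf7 and Fgf10 rises was not tested. The Emo-24h rats lay above SAP-24h (6.73, 3.34 and 5.76 FPKM), but the log2 fold change of 0.56 did not pass (adjusted p = 0.099). Against DEX-24h it was 0.66 (adjusted p = 0.0555).

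Fgfr2 and Fgfr4 also passed between DEX-6h and DEX-24h, in opposite directions. Fgfr2 stood at 8.09, 8.91 and 10.06 FPKM in DEX-6h and 13.71, 15.08 and 17.74 in DEX-24h (log2 fold change 0.80, adjusted p = 0.0441). All 3 later rats were higher, yet the call was lost with any 1 of the 6 rats left out, with adjusted p up to 0.124. It was also lost with a replicate block. From 6 to 24 hours Fgfr2 also had positive log2 fold changes in Sham (0.48), Con (0.49), SAP (0.60) and Emo (0.61). None of these passed. Fgfr4 fell by 1.09 on the log2 scale (adjusted p = 0.0354), and its call was lost without DEX-24h replicate 1 (0.142) or 3 (0.0857) and without DEX-6h replicate 2 (0.0588) or 3 (0.173), all adjusted p with edgeR. Alveolar type 1 markers were higher for 2 of 7 and alveolar type 2 markers for 2 of 9 in DEX-24h vs DEX-6h, with 0 lower in either list, and the summed FPKM of each list overlapped. Endothelial markers gave 2 higher and 2 lower of 6, and macrophage markers 2 higher of 6. The part of these markers in the Fgfr2 and Fgfr4 calls was not tested.

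**Figure D4:**
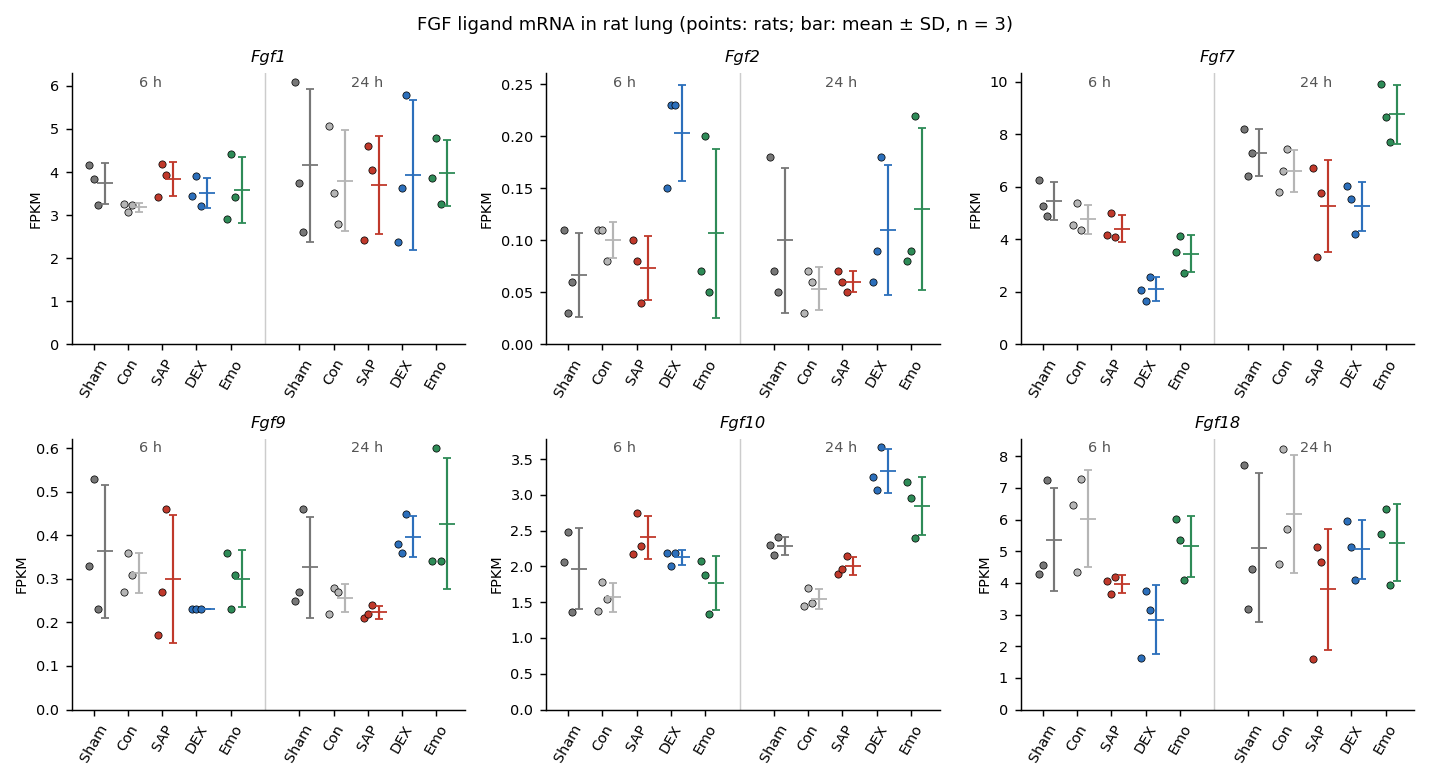
FGF ligand mRNA in FPKM (vertical axes) for the 10 groups (horizontal axes, 6 hours on the left and 24 hours on the right). Points are rats and bars are mean ± SD of 3. Fgf7 is lowest in DEX-6h (1.66 to 2.56 FPKM) and highest in Emo-24h (7.7 to 9.92), and Fgf10 is highest in DEX-24h (3.07 to 3.67).

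Fgf10, the ligand that drives branching of the lung, was highest in DEX-24h. It stood at 3.25, 3.07 and 3.67 FPKM in DEX-24h (3.33 ± 0.308), at 1.9, 1.97 and 2.14 in SAP-24h (2.00 ± 0.123) and at 2.3, 2.16 and 2.41 in Sham-24h (2.29 ± 0.125). The DEX-24h rats lay above all rats of both other groups. Against SAP-24h the log2 fold change was 0.64 (SE 0.161, adjusted p = 0.0169), and Fgf10 was the only 1 of 9 genes to pass where 7.71% of all genes passed. Without DEX-24h replicate 3 the adjusted p was 0.071, and with those 2 groups fitted alone it was 0.0745. Against Sham-24h the log2 fold change was 0.58 (adjusted p = 0.03), a call lost without DEX-24h replicate 2 or 3 or without Sham-24h replicate 1 or 2 (adjusted p up to 0.107). Fibroblast markers were lower for 2 of 10 in DEX-24h vs SAP-24h (Inmt and Pdgfra, median log2 fold change -0.394) and for 4 of 10 in DEX-24h vs Sham-24h. Airway, mesothelium and endothelial markers each had 1 higher and 0 lower against SAP-24h. The part of these markers in the Fgf10 results with DEX was not tested.

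Fgf10 was low in both saline groups, at 1.44, 1.7 and 1.49 FPKM in Con-24h and 1.38, 1.78 and 1.55 in Con-6h, which overlap. At 24 hours both SAP-24h (log2 fold change 0.50, adjusted p = 0.03) and Sham-24h (0.57, adjusted p = 0.0309) lay above Con-24h, the latter the only 1 of 9 genes to pass in a comparison of untreated groups where 9.85% of all genes passed. Each call was fragile. Sham-24h vs Con-24h was lost with any 1 rat left out (adjusted p up to 0.128), and SAP-24h vs Con-24h without Con-24h replicate 1 or 3 or SAP-24h replicate 1 or 3 (up to 0.101). Neutrophil markers were higher for 4 of 7 in Sham-24h vs Con-24h (median log2 fold change 3.10) and for 7 of 7 in SAP-24h vs Con-24h (median 5.19). Smooth muscle and pericyte markers were lower for 5 of 8 in SAP-24h vs Con-24h, and fibroblast markers lower for 2 and higher for 1 of 10. The part of these markers in the Fgf10 differences was not tested. At 6 hours the SAP-6h rats (2.18, 2.75 and 2.29 FPKM) lay above the Con-6h rats, with a log2 fold change of 0.69 that did not pass with edgeR (adjusted p = 0.0747). There edgeR passed 0 of 9 genes, 2 had an unadjusted p under 0.05, DESeq2 passed 1, and 0.207% of all genes passed.

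Over time Fgf10 rose by 0.66 on the log2 scale from DEX-6h to DEX-24h (adjusted p = 0.00489) and by 0.64 from Emo-6h to Emo-24h (adjusted p = 0.00434), and no rat left out ended these calls. From SAP-6h to SAP-24h its log2 fold change was -0.16 (adjusted p = 0.566). In that comparison edgeR passed 0 of 9 genes, and 2 had an unadjusted p under 0.05 (Fgfr2 and Fgfr4, not Fgf10). DESeq2 passed 1, and 6.01% of all genes passed with edgeR. The test of whether the DEX effect differed between the times gave 0.82 for Fgf10 (adjusted p = 0.125) and 0.98 for Fgf7 (adjusted p = 0.17). That test passed 0 of 9 genes with edgeR, with 3 at an unadjusted p under 0.05 and Fgf10 alone by DESeq2, beside 0.169% of all genes. For the emodin effect, the difference between the times was 1.24 for Fgfr4 (adjusted p = 0.16) and 0.93 for Fgf7 (adjusted p = 0.0783). There edgeR again passed 0 of 9 genes, 3 had an unadjusted p under 0.05, DESeq2 passed 1, and 3.57% of all genes passed.

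Fgf18, Fgf9 and Fgf1 gave no call. Fgf18, a ligand of alveolar growth that binds Fgfr3, stood at 1.59, 5.14 and 4.65 FPKM in SAP-24h and at 7.74, 3.17 and 4.44 in Sham-24h, values that overlap. Its log2 fold changes ran from -0.88 to 0.86 over the 21 comparisons. Fgf9, made by mesothelium and epithelium, had 11 to 42 reads per library, and its highest group mean was 0.427 FPKM in Emo-24h beside 0.223 in SAP-24h (log2 fold change 0.77, adjusted p = 0.146). Fgf1 ran from -0.12 to 0.34 on the log2 scale, and its 95% interval in SAP-24h vs Sham-24h was -0.63 to 0.54. Between Sham-6h and Sham-24h edgeR passed 0 of 9 genes (0 at an unadjusted p under 0.05, 0 with DESeq2), where 0.992% of all genes passed. The remaining comparisons also gave 0 passing genes of 9 with edgeR and 0 with DESeq2. At an unadjusted p under 0.05 there were 2 in Emo-6h vs Sham-6h (3.26% of all genes passing), 4 in Emo-6h vs DEX-6h (2.88%), 1 in Sham-6h vs Con-6h (0%), 1 in Con-24h vs Con-6h (0.0126%) and 1 in the test of whether Emo vs DEX differed between the times (0.0628%).

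With a change of at least 2-fold required as well, 1 of the 9 genes remained in SAP-24h vs Con-24h (6.91% of all genes), 1 in DEX-24h vs Sham-24h (4.15%) and 1 in Emo-24h vs Emo-6h (9.41%). In DEX-24h vs DEX-6h 2 remained (7.14%). For Sham-24h vs Con-24h (1%) and DEX-24h vs SAP-24h (3.73%) the count became 0, since the Fgf10 differences were under 2-fold.

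When the 10 groups were put in order of their mean FPKM, few neighbours differed by more than the SD of both. For Fgfr4 1 of the 9 gaps did, that between SAP-6h (7.76 ± 1.27) and DEX-24h (4.10 ± 0.910). For Fgf7 and Fgf10 4 of 9 did, for Fgfr1 2, for Fgfr2, Fgfr3 and Fgf18 1, and for Fgf1, Fgf9 and Fgf2 none. Across the 30 libraries Fgfr3 and Fgf18 had the highest correlation among pairs of members (Pearson r = 0.795 of log2(FPKM + 1)), followed by Fgfr2 and Fgfr3 (0.77). These libraries share treatments and times, and the values describe them only.

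By Pearson r, the genes most like Fgfr4 across the 30 libraries, of 12367 compared, were Prelp (r = 0.951), Evc (0.93) and Srpx2 (0.917). Prelp, which encodes a matrix proteoglycan, stood at 51.2 ± 12.3 FPKM in SAP-24h, 91.1 ± 17.1 in Emo-24h and 104 ± 21.6 in Sham-24h. For Fgf7 they were Rmdn2 (0.88), Meox2 (0.876) and Stard13 (0.876), for Fgfr2 Kcne2 (0.927), Atp11a (0.887) and Arhgap24 (0.845), and for Fgf10 AABR07033564.1 (0.814), Tex30 (0.812) and Rnf103 (0.812). By Spearman correlation Prelp and Kcne2 also ranked 1, but Evc and Srpx2 ranked 13 and 9 for Fgfr4. The Fgf10 genes then ranked 25, 10 and 22.

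Downstream of the receptors, genes of the pathway moved in both directions in SAP-24h vs Sham-24h. Of 13 feedback inhibitors and targets tested, 2 were higher and 1 was lower, beside the 12.4% of all genes that passed there, with a median log2 fold change of 0.30 beside -0.03 over all genes. Etv4, an ETS factor induced by FGF signalling, fell by 1.90 on the log2 scale (adjusted p = 0.00217), from 2.34 ± 0.751 to 0.577 ± 0.116 FPKM. Among the Sprouty genes, whose products restrain receptor tyrosine kinase signals, Spry2 rose by 1.06 (adjusted p = 0.00579) and Spry1 by 0.61 (adjusted p = 0.0243), while Spry4 had a log2 fold change of 0.88 and did not pass (adjusted p = 0.0976). Spry2 spread widely in SAP-24h, at 28.33 to 63.03 FPKM, above the 20.4 to 23.49 FPKM of Sham-24h. Of 17 genes of the signal relay, 3 were higher (Shc1, Ptpn11 and Grb2, adaptor and phosphatase genes, by 0.32 to 0.52) and 0 lower, again beside 12.4% of all genes. Against Con-24h the relay genes went both ways, with 4 higher and 3 lower, beside 22.1% of all genes.

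Co-receptors and heparan sulfate genes gave 4 higher and 3 lower of 20 tested in the same comparison, beside 12.4% of all genes. Flrt2, a membrane protein that binds FGF receptors, rose by 1.33 (adjusted p = 0.0102). Gpc1 fell by 1.07, Flrt3 by 0.91 and Gpc3 by 0.90, the Gpc genes coding for glypicans that carry heparan sulfate. Sdc4, Hs6st1 and Sulf1 were the others to rise, named after their values were seen. Of 5 further FGF ligands tested, Fgf16 alone passed, lower in SAP-24h at 0.05 ± 0.02 FPKM beside 0.2 ± 0.0656, and it too was named after its values were seen.

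**Figure D5:**
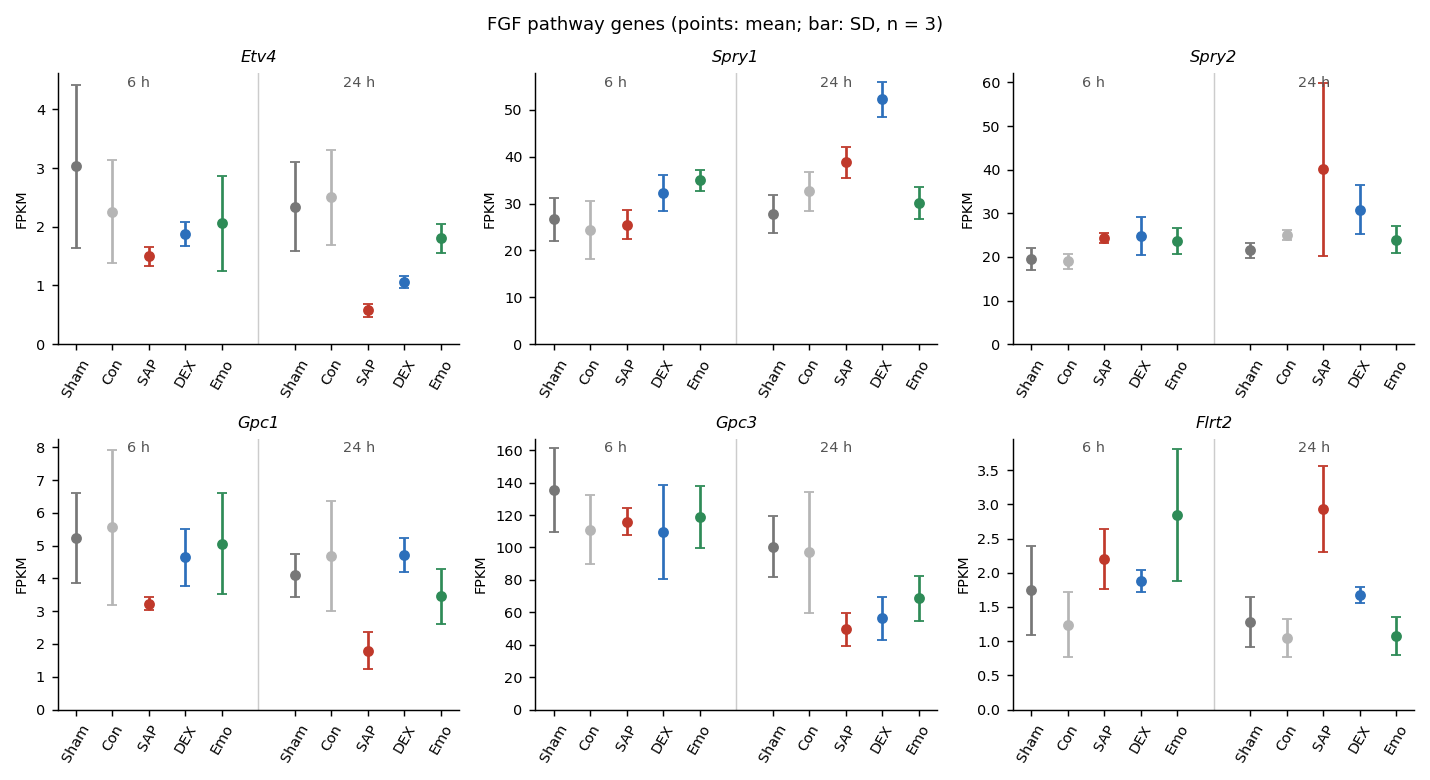
FPKM (vertical axes, points are means and bars SD of 3 rats) of Etv4, Spry1, Spry2, Gpc1, Gpc3 and Flrt2 in the 10 groups (horizontal axes, 6 hours left and 24 hours right). Etv4 is lowest in SAP-24h at 0.577 FPKM, followed by DEX-24h at 1.06, with every other group at 1.50 or above.

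With emodin at 24 hours the same lists gave 1 higher and 1 lower among 13 feedback genes, 0 and 3 among 17 relay genes, 0 and 3 among 20 co-receptor genes and 1 higher among 5 further ligands, all against SAP-24h, where 8.59% of all genes passed. Etv4 rose by 1.50 (adjusted p = 0.014) to 1.80 ± 0.252 FPKM, and Spry2 fell by 0.93 (adjusted p = 0.0181). Etv5 and Etv1 did not pass there. Flrt2 fell by 1.62, Sdc4 by 0.74 and Sulf1 by 0.66. The relay genes Shc1, Hras and Ptpn11 fell by 0.50, 0.44 and 0.42, and Fgf12, a member of the FGF family that stays inside cells, rose by 1.14. Heart muscle markers summed to 102.9 to 221.7 FPKM in Emo-24h and 7.05 to 109.8 in SAP-24h, which overlap. Their median log2 fold change was 1.74 beside 0.015 over all genes, and 0 of 6 passed. The part of these markers in the Fgf12 rise was not tested. These comparisons share the SAP-24h rats with SAP-24h vs Sham-24h, so opposite signs in them are not separate evidence.

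In DEX-24h vs SAP-24h, neither Etv4 nor a Sprouty gene passed, although 7 of the 13 feedback genes had an unadjusted p under 0.05 with edgeR. The Etv4 values of DEX-24h (0.94 to 1.12 FPKM) lay above those of SAP-24h (0.47 to 0.7 FPKM). Of the 13 feedback genes only Dusp5, a MAP kinase phosphatase, passed, and it fell by 1.00 (adjusted p = 0.00901). Co-receptor genes gave 2 higher and 3 lower of 20 where 7.71% of all genes passed, with Gpc1 rising by 1.32 and Gpc4 by 0.94, and Ndst1, an enzyme of heparan sulfate synthesis, falling by 0.98. Relative to Sham-24h, Etv4 was lower in DEX-24h by 1.11 (adjusted p = 0.049), and Spry1 was higher by 0.95 and Gpc4 by 1.22. Etv4 did not pass in Emo-24h vs DEX-24h. At 6 hours Hs6st1, a heparan sulfate sulfotransferase, was the only 1 of 20 co-receptor genes to pass in DEX-6h vs SAP-6h. It fell by 0.65 (adjusted p = 0.0432). Of the 13 feedback genes, 17 relay genes and 5 further ligands, 0 passed there, beside 0.979% of all genes.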

How the data were processed

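RNA was from lung tissue of each rat, and replicates are separate animals. The authors made directional libraries from polyadenylated RNA, clipped the reads, mapped them with TopHat2 to the rat genome (Ensembl v6), discarded reads with several positions and deposited read counts per gene, without normalization, and FPKM. From the counts, genes with enough reads (filterByExpr, minimum count 10 and total 15) were normalized by TMM and fitted with edgeR 4.0.16 (R 4.3.3) as 10 groups over 30 libraries, with 20 residual degrees of freedom and Benjamini-Hochberg adjustment. SE is the absolute log2 fold change over the square root of F. FPKM gave levels, shares and correlations (Python 3.11.15, pandas 2.3.3, matplotlib 3.10.9). Alternatives were DESeq2 1.42.0, RLE scaling, no low-count filter, the compared groups alone, a replicate block, a 2-fold rule and each library left out. Steps were tested on simulated data. The members and lists were chosen with earlier results of these data known. All members were named; from each pathway list, up to 4 genes per comparison that passed, had the largest change and reached a mean of 1 FPKM; and the 3 genes most like each member that passed.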

Additional observations from a re-analysis of the deposited data

Results flagged for a closer look

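Fgf10 was singled out because its difference between emodin and SAP went in opposite directions at the 2 times. The Emo-6h rats (2.08, 1.88 and 1.34 FPKM) all lay below the SAP-6h rats (2.18, 2.75 and 2.29), and the Emo-24h rats (3.18, 2.95 and 2.39) all lay above the SAP-24h rats (1.9, 1.97 and 2.14). The log2 fold change of Emo vs SAP was -0.46 at 6 hours (adjusted p = 0.246) and 0.34 at 24 hours (adjusted p = 0.179). The difference of these changes was 0.80 on the log2 scale (SE 0.229). It narrowly missed the threshold with edgeR (adjusted p = 0.0511) and passed with DESeq2 (adjusted p = 0.0175). The explanation was not tested.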

How the results depend on the processing

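No log2 fold change of a called member changed sign under any alternative. The number of the 9 genes called was kept by RLE scaling in all 21 comparisons. The 2-fold rule changed it from 2 to 1 in SAP-24h vs Con-24h, DEX-24h vs Sham-24h and Emo-24h vs Emo-6h, from 4 to 2 in DEX-24h vs DEX-6h, and from 1 to 0 in DEX-24h vs SAP-24h and Sham-24h vs Con-24h. Without the low-count filter it was 0 in Sham-24h vs Con-24h and 3 in DEX-24h vs DEX-6h. Fits of the compared groups alone gave 0 in Emo-24h vs SAP-24h, DEX-6h vs SAP-6h, DEX-24h vs SAP-24h, SAP-24h vs Sham-24h and Sham-24h vs Con-24h, 1 in SAP-24h vs Con-24h, 2 in Emo-24h vs DEX-24h, 5 in DEX-24h vs DEX-6h and 3 in Emo-24h vs Emo-6h. DESeq2 gave 1 in SAP-6h vs Con-6h, SAP-24h vs SAP-6h and the DEX and Emo interactions with time, and 2 in Emo-24h vs DEX-24h. With each library left out, counts ran from 0 to 1 in Emo-24h vs DEX-24h, DEX-6h vs SAP-6h, DEX-24h vs SAP-24h, Sham-24h vs Con-24h and the Emo interaction, from 1 to 2 in SAP-24h vs Con-24h, DEX-24h vs Sham-24h and Emo-24h vs SAP-24h, and from 2 to 3 in DEX-24h vs DEX-6h. Of 102 such fits of the 17 calls, 72 kept the call. The causes were not tested, though a fit of 2 groups has fewer samples.

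Same-numbered rats of different groups were no more alike than other-numbered rats, by the correlation of their deviations. It ran from -0.363 to 0.359 over 135 same-numbered pairs (median -0.0065). Over 270 other-numbered pairs it ran from -0.344 to 0.382 (median 0.0096). A replicate block gave 3 calls in DEX-24h vs DEX-6h, with Fgfr2 lost (adjusted p = 0.0554), and the same counts elsewhere. Depth limits Fgf2, with at most 11 reads, and Fgf9, with at most 42.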
